A study of Drosophila melanogaster with 9 samples.

Results

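The genes described here are 30 *Drosophila melanogaster* genes for proteins of the muscle contractile apparatus other than actin. They were chosen by name for their place in the sarcomere, with earlier results of these data known. All 30 were found among the 14077 genes of the deposited tables and passed the filter on low counts, as did 10870 genes in all. They comprise 6 thick filament genes, 11 thin filament genes, 5 genes for giant or linker proteins, 6 Z-disc genes and 2 genes for abundant soluble proteins of the sarcoplasm. The questions asked of them were whether their rise in stretch follicle cell (SFC) libraries is uniform or gene-specific, and which transcripts carry it.

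The measurements are TRAP-seq, in which GFP-tagged ribosomal protein RpL10Ab is expressed under a GAL4 driver, tagged ribosomes are pulled down with an anti-GFP antibody, and the bound mRNA is sequenced. Fed SFC libraries came from *PG150-Gal4*>*UAS-Rpl10A-GFP* flies that were 3 days old, reared at 25°C, when they received 2 days of yeast paste. The starved AFC group consisted of *GR1-Gal4*>*UAS-Rpl10A-GFP* flies, also at 25°C, deprived of yeast on apple juice agar for 16 to 20 h. Their age and earlier feeding are not given. The fed AFC group had the same genotype as the starved group, and the age, temperature and diet of the SFC group. Each group has 3 libraries of about 100 flies each. All 9 libraries carry the tagged ribosomal protein, and the groups differ in driver, diet or both. *GR1-Gal4* marks all follicle cells after early oogenesis (AFCs), SFCs included, and the labels name these samples after main body follicle cells. *PG150-Gal4* also marks centripetal cells, so neither driver separates SFCs from every other follicle cell. The study also reports weak activity of *GR1-Gal4* in the gut and of *PG150-Gal4* in the Malpighian tubules. Lysates were made from body parts, not from dissected ovaries. Fed SFC and fed AFC libraries differ in driver and in nothing else the labels give, and no input or mock pulldown library was analysed here.

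In the sarcomere, myosin thick filaments slide along actin thin filaments anchored at the Z-disc. Tropomyosin and the troponin complex cover the myosin sites on actin, and calcium bound to troponin C uncovers them. Giant proteins such as projectin and Sallimus link thick filaments to the Z-disc. The fly uses alternative genes and alternative exons for many of these proteins, so that flight muscle, jump muscle and tubular body muscle differ in their troponin C, myosin and actin forms. Thorax and abdomen, the body parts collected, are rich in muscle, and a contractile muscle sheath surrounds each ovariole. The methods name only abdomens as homogenized, and whether thoraxes entered each library is not stated. In libraries pooled from many animals, more cells of a type and more RNA per cell cannot be told apart.

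The libraries held 30551253 to 45910215 reads. Fed AFC replicate 1 had at least 10 reads in 13250 genes, against 9273 to 10869 genes in the other 8 libraries. Reads of rRNA genes made up 36.3% of SFC replicate 2 and 1.19% to 21.5% of the others. SFC replicate 2 was also the highest of the 9 libraries for 17 of the 30 genes, SFC replicate 1 for 8, fed AFC replicate 2 for 3 and fed AFC replicate 1 for 2. The tagged gene *RpL10Ab* itself was read at 2211, 2105 and 1132 CPM (counts scaled to library size by the TMM method) in fed SFCs, at 3364, 2474 and 2715 CPM in starved AFCs and at 2535, 4216 and 3446 CPM in fed AFCs.

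In the edgeR quasi-likelihood test 7 of 30 were higher in fed SFCs than in fed AFCs at an adjusted p below 0.05, where 1.21% of all genes tested were higher. None was lower, against 1.78% of all genes. From these same libraries the study had named *Tm1*, *Tm2*, *up*, *Actn*, *Mlc1*, *Mlc2*, *bt*, *TpnC41C* and *Scp1* as higher in SFCs. The 30 genes were chosen with such results known, so their excess over all genes is not an independent result. At an unadjusted p below 0.05, 17 of the 30 were higher and 0 lower, against 985 higher and 1152 lower of the 10870 genes (9.06% and 10.6%). The log2 fold changes (LFC) had a median of 1.05 over the 30 genes and of -0.10 over all genes tested, and 26 of the 30 were positive. They ran from -2.03 for *Zasp67* to 3.97 for *Scp1*, with quartiles at 0.37 and 1.55. Their SD was 1.16 and the median standard error of a single LFC was 0.39, against an SD of 1.245 and a median standard error of 0.348 over all genes tested. The groups did not overlap, with every SFC library above every fed AFC library, for 12 of the 30 genes (9.12% of all genes). The reverse held for 1 of the 30, *Argk1*, which did not pass the test, and for 1281 of all 10870 genes.

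**Figure D1:**
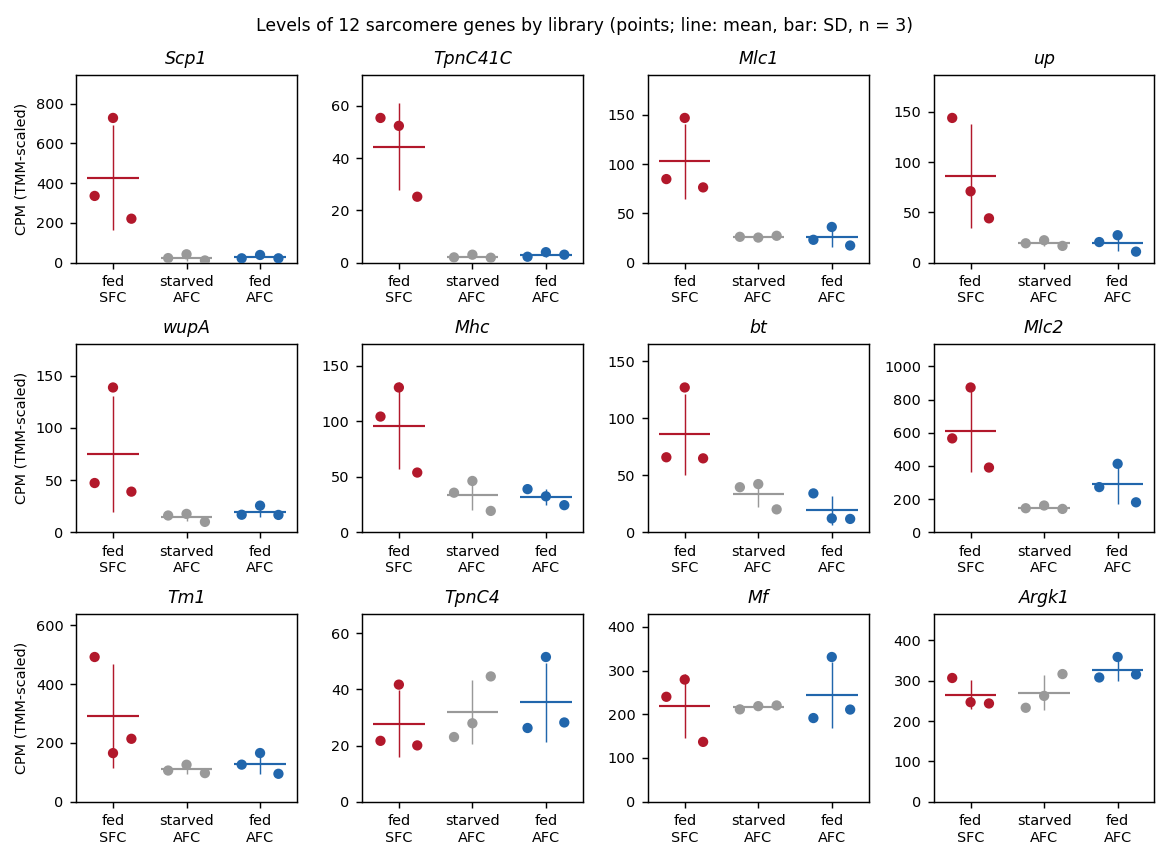
TMM-scaled CPM (linear axes from 0) of 12 sarcomere genes in the 3 fed SFC, 3 starved AFC and 3 fed AFC libraries. Points are libraries, horizontal lines are group means and vertical bars are the SD. *Scp1* is at 221 to 728 CPM in fed SFCs and at 21.6 to 38.5 CPM in fed AFCs, whereas *Argk1* is at 244 to 307 CPM in fed SFCs and at 308 to 359 CPM in fed AFCs.

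*Scp1*, which encodes a sarcoplasmic calcium-binding protein, had the largest difference. It was read at 336, 728 and 221 CPM in fed SFCs, at 22.8, 42.0 and 10.9 CPM in starved AFCs, and at 21.6, 38.5 and 21.7 CPM in fed AFCs. Every SFC library stood above all 6 AFC libraries. The difference from fed AFCs was an LFC of 3.97 ± 0.55 (SE, n = 3 each, adjusted p = 0.00273), or 15.7-fold. The gene (FBgn0020908) lies on chromosome 2R from 2932595 to 2968052 on the minus strand of BDGP6.54. *Argk1*, arginine kinase, the enzyme that buffers ATP in muscle, belongs to the same soluble fraction and did not follow it. It was read at 307, 247 and 244 CPM in fed SFCs, at 233, 262 and 316 CPM in starved AFCs and at 308, 359 and 315 CPM in fed AFCs, an LFC of -0.30 ± 0.22 for fed SFCs over fed AFCs (adjusted p = 0.46).

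The troponin C genes, which encode alternative calcium sensors of the thin filament, were split. *TpnC41C*, a form known from adult jump and tubular muscle, was read at 55.4, 52.4 and 25.2 CPM in fed SFCs, at 2.01, 3.04 and 1.87 CPM in starved AFCs and at 2.25, 4.001 and 3.04 CPM in fed AFCs. Its LFC in fed SFCs over fed AFCs was 3.84 ± 0.41 (adjusted p = 0.000596), or 14.3-fold, and the lowest SFC library was above the highest AFC library. *TpnC4*, the form known from the stretch-activated flight muscle, had 21.7, 41.7 and 20.1 CPM in fed SFCs, 23.0, 27.9 and 44.6 CPM in starved AFCs and 26.3, 51.6 and 28.2 CPM in fed AFCs. These groups overlapped, and the LFC was -0.35 ± 0.37 (adjusted p = 0.61). *TpnC47D* was at 19.0, 38.4 and 6.18 CPM in fed SFCs, at 6.47, 4.64 and 3.30 CPM in starved AFCs and at 13.0, 13.2 and 11.2 CPM in fed AFCs, with SFC replicate 3 below every fed AFC library. *TpnC73F* had 3.63, 8.71 and 3.05 CPM in fed SFCs, 1.59, 1.34 and 0.92 CPM in starved AFCs and 2.70, 3.33 and 0.38 CPM in fed AFCs. *TpnC25D* had 10.2, 6.18 and 2.48 CPM in fed SFCs, 2.64, 4.14 and 2.12 CPM in starved AFCs and 3.49, 7.18 and 4.13 CPM in fed AFCs. The LFCs of *TpnC47D*, *TpnC73F* and *TpnC25D* were 0.76 ± 0.52, 1.26 ± 0.86 and 0.35 ± 0.62, and none passed the test. *TpnC4* and *TpnC25D* each overlap a gene on the other strand, *Ugt50B3* and *tkv*, whose reads cannot be told apart from theirs without strand.

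The 2 other subunits of troponin were higher in fed SFCs. The troponin T gene *up*, which binds the complex to tropomyosin, was read at 144, 71.0 and 44.1 CPM in fed SFCs, at 19.2, 22.2 and 16.6 CPM in starved AFCs and at 20.4, 27.3 and 10.9 CPM in fed AFCs, with no overlap between fed SFCs and either other group. Its LFC over fed AFCs was 2.14 ± 0.42 (adjusted p = 0.0196), and without fed AFC replicate 3 it was 1.88 (adjusted p = 0.0808, in a range from 3.5e-05 to 0.0808). The troponin I gene *wupA*, the inhibitory subunit, was at 47.2, 139 and 38.9 CPM in fed SFCs, at 16.0, 17.5 and 9.85 CPM in starved AFCs and at 16.7, 25.5 and 16.5 CPM in fed AFCs. SFC replicate 2 was far above the other SFC libraries, and the LFC was 1.94 ± 0.45 (adjusted p = 0.0376). Without SFC replicate 2 it was 1.19 (adjusted p = 0.114), and without fed AFC replicate 1 or 3 it was 1.83 each (adjusted p = 0.068 and 0.157), within a range of adjusted p from 0.000561 to 0.157 over the 18 alternatives.

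The tropomyosin genes, whose coiled coils lie along actin, had positive LFCs that did not pass the edgeR test. *Tm2* had an LFC of 1.41 ± 0.37 (adjusted p = 0.0661) and *Tm1* one of 1.17 ± 0.37 (adjusted p = 0.113). DESeq2, which called 1064 genes in all against 325, passed both (adjusted p = 0.00492 and 0.0171). Of the 18 alternatives, 4 called *Tm2* and 1 called *Tm1*. The remaining thin filament genes were *tmod*, which caps the pointed end of actin, and *sals*, which lengthens thin filaments, with LFCs of 1.01 ± 0.45 and 1.19 ± 0.69. In all, 3 of the 11 thin filament genes were higher (1.21% of all genes), with a median LFC of 1.19.

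Of the 6 thick filament genes, the essential light chain and the heavy chain of muscle myosin were higher. The light chain gene *Mlc1* was read at 84.8, 147 and 76.3 CPM in fed SFCs, at 26.2, 25.4 and 27.2 CPM in starved AFCs and at 23.1, 36.2 and 17.3 CPM in fed AFCs. The highest AFC value, 36.2 CPM, was below every SFC library, and the LFC was 2.00 ± 0.32 (adjusted p = 0.00644). The heavy chain gene *Mhc* had 104.2, 130 and 53.7 CPM in fed SFCs, 35.6, 46.1 and 19.1 CPM in starved AFCs and 38.8, 32.3 and 24.3 CPM in fed AFCs, an LFC of 1.59 ± 0.37 (adjusted p = 0.0392). The groups did not overlap for *Mhc* either, but its call was lost without SFC replicate 1, SFC replicate 2, starved AFC replicate 1, fed AFC replicate 2 or fed AFC replicate 3, with adjusted p from 0.0181 to 0.175 when single libraries were left out.

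The regulatory light chain gene *Mlc2* was at 566, 873 and 390 CPM in fed SFCs, at 144, 161 and 140 CPM in starved AFCs and at 272, 412 and 180 CPM in fed AFCs. SFC replicate 3 fell inside the range of the fed AFC libraries, and the LFC over fed AFCs was 1.08 ± 0.34 (adjusted p = 0.118). Of the 18 alternatives 1 called it, the DESeq2 test (adjusted p = 0.0127). *Mf*, which encodes the thick filament protein myofilin and had the highest mean level of the 30 genes per length, had 240, 279 and 137 CPM in fed SFCs, 211, 219 and 220 CPM in starved AFCs and 191, 331 and 211 CPM in fed AFCs. The groups overlapped throughout, and the LFC was -0.16 ± 0.29 (adjusted p = 0.78). Paramyosin (*Prm*) and flightin (*fln*), a thick filament protein known from flight muscle, had LFCs of 0.43 ± 0.29 and 0.29 ± 0.37. *Mf* overlaps *Gyc88E* on the other strand, as *Tm1*, *tmod*, *sals*, *Strn-Mlck*, *Actn*, *Zasp52*, *Zasp66* and *Zasp67* also overlap other genes.

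Among the giant and linker proteins, *bt*, the gene for projectin, was higher. It had 65.8, 127 and 64.8 CPM in fed SFCs, 39.5, 42.2 and 20.0 CPM in starved AFCs and 34.1, 12.1 and 11.6 CPM in fed AFCs, an LFC of 2.15 ± 0.46 (adjusted p = 0.0268). The call of *bt* was lost without SFC replicate 2, fed AFC replicate 2 or fed AFC replicate 3, with adjusted p of 0.0501, 0.0763 and 0.103 in a range of 0.000265 to 0.103 over the alternatives. The giant genes are those in which fed AFC replicate 1 stood apart. *Msp300*, a nesprin that positions nuclei in muscle, was read at 50.004, 131 and 67.7 CPM in fed SFCs, at 32.9, 52.0 and 9.57 CPM in starved AFCs and at 115.1, 8.002 and 6.98 CPM in fed AFCs. Fed AFC replicate 1 was 15.4 times the mean of the other fed AFC libraries for *Msp300*, 5.08 times for *sls* (Sallimus, the titin-like spring), 3.10 times for *Unc-89* (obscurin, annotated as *Obsc*), 2.87 times for *bt* and 2.40 times for *Strn-Mlck*. It was also 7.06 times for the sparsely read *Zasp67*, 2.74 times for *sals* and 1.98 times for *tmod*, and 0.62 to 1.46 times for the other 22 genes.

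**Figure D2:**
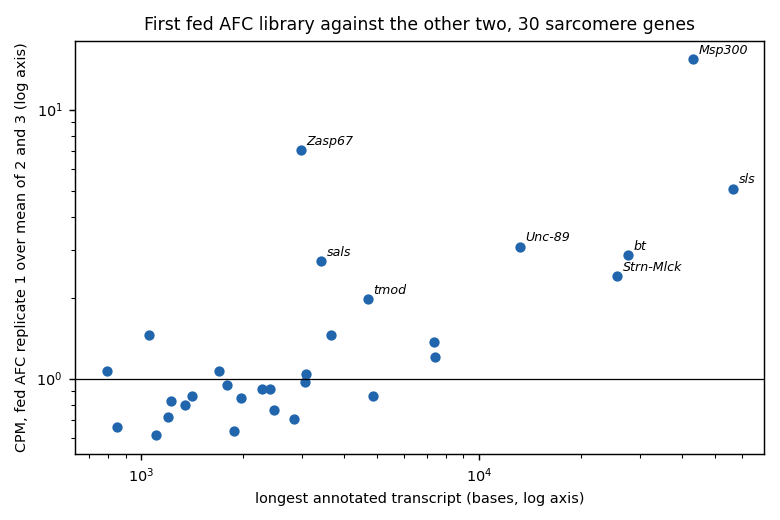
CPM in fed AFC replicate 1 over the mean of fed AFC replicates 2 and 3 (log axis) against the longest annotated transcript (bases, log axis), for each of the 30 genes. The 5 giant and linker genes are at 2.40 to 15.4, and the line marks a ratio of 1.

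Without that library the LFC of *Msp300* was 3.47 (adjusted p = 0.0174, against 0.577 with it), that of *sls* 3.16 (adjusted p = 0.0244, against 0.162) and that of *Strn-Mlck* 1.34 (adjusted p = 0.0314, against 0.245). All 3 then passed the test. Over the alternatives their adjusted p ran from 0.0174 to 0.813 for *Msp300*, from 0.0244 to 0.403 for *sls* and from 0.0314 to 0.49 for *Strn-Mlck*. The part of this library in the results of other genes was not tested beyond leaving it out.

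None of the 6 Z-disc genes passed the test, although 5 had positive LFCs and their median was 0.99. *Mlp60A*, a muscle LIM protein and among the highest of the 30 genes per length, had 167, 180 and 72.7 CPM in fed SFCs, 108, 72.3 and 70.5 CPM in starved AFCs and 58.7, 106 and 48.5 CPM in fed AFCs. SFC replicate 3 was within the fed AFC range, and the LFC was 0.98 ± 0.37 (adjusted p = 0.173). *Actn*, the α-actinin that crosslinks actin at the Z-disc, had an LFC of 1.01 ± 0.29 (adjusted p = 0.0864), *Zasp66* one of 1.099 ± 0.33 and *Mlp84B* one of 1.19 ± 0.42. DESeq2 alone among the alternatives passed *Actn* and *Zasp66* (adjusted p = 0.0121 and 0.0214). *Zasp52*, the main Zasp scaffold, had 92.1, 145 and 91.9 CPM in fed SFCs, 90.3, 104.2 and 90.5 CPM in starved AFCs and 103.9, 71.8 and 100.3 CPM in fed AFCs, and an LFC of 0.25 ± 0.24. *Zasp67* had at most 0.95 CPM in any SFC library.

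**Figure D3:**
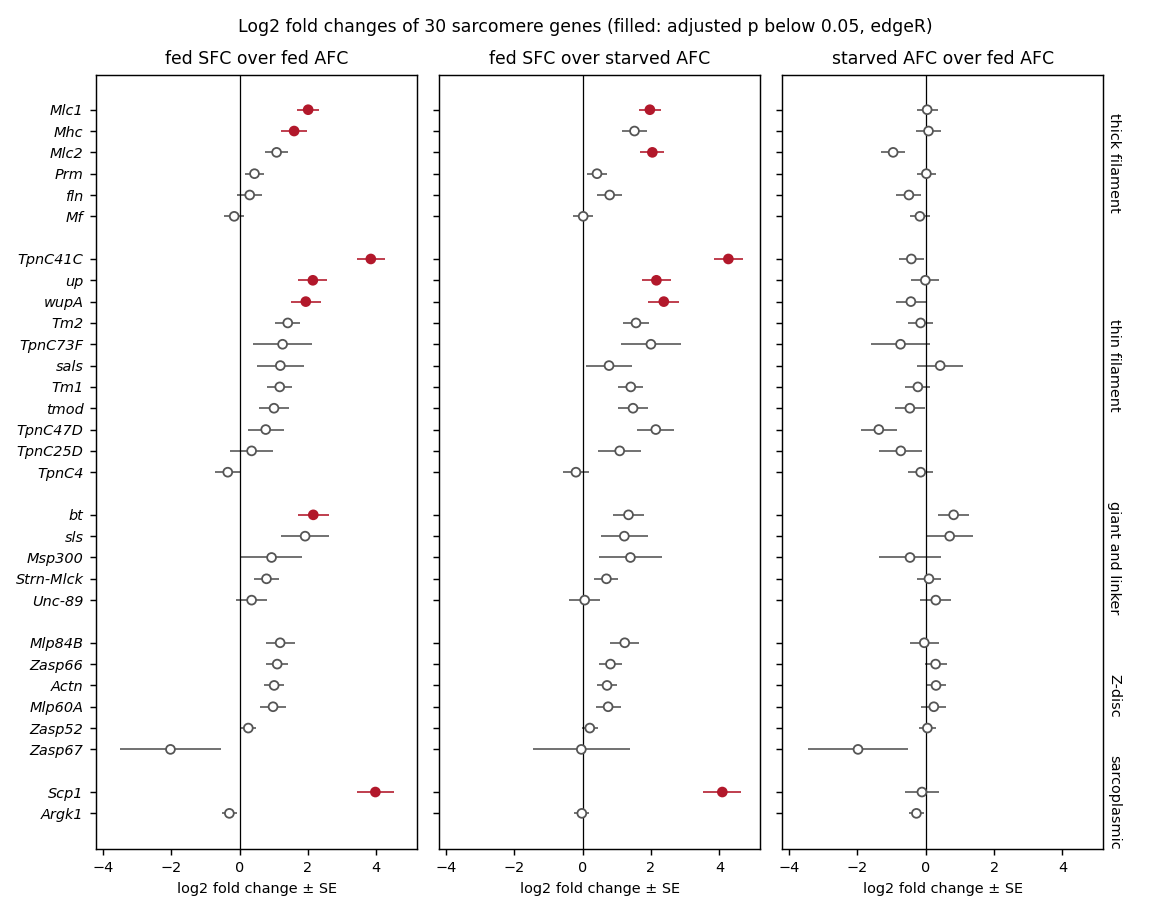
Log2 fold changes (± SE, edgeR, n = 3 libraries a group) of the 30 genes by role, for fed SFC over fed AFC, fed SFC over starved AFC and starved AFC over fed AFC. Filled points have an adjusted p below 0.05, which 7, 6 and 0 of the 30 genes reached.

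*Scp1*, *TpnC41C* and *Mlc1* were past the threshold in all 18 alternatives. Scaling on the sarcomere genes, under which *Mlc1* did not pass, was not among these. With single libraries left out the LFCs were 3.40 to 4.32, 3.65 to 4.13 and 1.71 to 2.37. The count of 7, among 325 genes called in all, became 4 without SFC replicate 2 (174 in all). It became 3 without fed AFC replicate 3 (85 in all) and 9 without fed AFC replicate 1 (487 in all). The calls over all genes thus moved in the same direction. With fed AFC replicate 1 and SFC replicate 2 both left out the count was 8 (468 genes in all), of which 5 were among the 7.

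The composition of the set differed between the groups. Summed TPM (Salmon's level per transcript length) of the 30 genes came to 1944, 1081 and 925 in fed SFCs, to 633, 883 and 497 in starved AFCs and to 717, 789 and 442 in fed AFCs. TPM was not TMM-scaled and includes rRNA, which made up 4.31% of the reads of SFC replicate 1 and 36.3% of SFC replicate 2. Sums in TPM therefore depend on the rRNA content of a library, whereas shares of the sum within a library do not. A change by 1 factor for all genes would leave each gene's share of this sum alike. *Scp1* took 11.8%, 20.1% and 13.5% of the sum in fed SFCs, 1.82%, 3.59% and 0.98% in starved AFCs and 1.62%, 1.65% and 1.69% in fed AFCs. *TpnC41C* took 2.24% to 2.84% in fed SFCs, 0.21% to 0.38% in starved AFCs and 0.23% to 0.27% in fed AFCs. *Mlc1* took 4.37% to 7.66% in fed SFCs, 3.19% to 3.61% in starved AFCs and 2.12% to 2.98% in fed AFCs. The shares of *up*, *wupA* and *Mhc* were also above the fed AFC range in every SFC library.

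The shares of 4 genes were below it. *Mf* took 12.9%, 9.70% and 11.6% in fed SFCs, 26.7% to 27.3% in starved AFCs and 22.4% to 25.3% in fed AFCs. *Argk1* took 6.06% to 13.1% in fed SFCs, 15.5% to 20.7% in starved AFCs and 16.8% to 22.7% in fed AFCs, and *TpnC4* 1.25% to 2.09% in fed SFCs, 3.28% to 5.67% in starved AFCs and 3.64% to 4.41% in fed AFCs. The fourth was *fln*. Of the difference of 667 TPM between the group means of the sum, *Scp1* made up 27.0%, *Tm1* 14.3%, *Mlp60A* 11.2%, *Mlc2* 11.1% and *Mlc1* 8.9%. In TPM these parts rested on SFC replicate 1. Without it (a choice made after seeing the data) the difference was 353 TPM, of which *Scp1* made up 45.4%, *Mlc2* 15.9%, *Mlc1* 15.6%, *Tm1* 6.34% and *Mlp60A* 5.39%. In TMM-scaled CPM the highest SFC library was more often replicate 2, for 19 genes against 10 for replicate 1. A share falls when others in the sum rise, so these shares are not independent of each other.

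**Figure D4:**
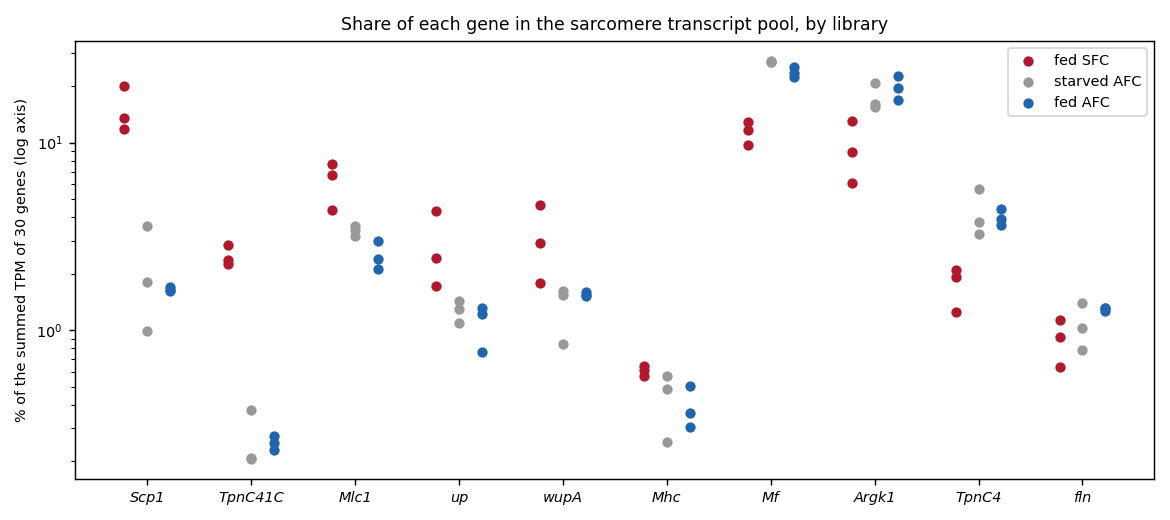
Share (%, log axis) of 10 genes in the summed TPM of the 30 genes, in each fed SFC, starved AFC and fed AFC library. The fed SFC points of *Scp1*, *TpnC41C*, *Mlc1*, *up*, *wupA* and *Mhc* lie above the fed AFC points, and those of *Mf*, *Argk1*, *TpnC4* and *fln* below.

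The libraries were also scaled on 29 of the 30 genes themselves (*Zasp67* was at 0 in SFC replicate 2), an alternative chosen after seeing the data. An LFC then says how a gene moved relative to the set. This recentres the same values on the level of the set, so genes at the ends of its range come out high or low. It adds no independent support to the shares above. *Scp1* and *TpnC41C* were then higher than the set, with LFCs of 2.66 ± 0.48 (adjusted p = 0.00035) and 2.58 ± 0.55 (adjusted p = 0.00166). *TpnC4*, *Mf* and *Argk1* were lower than the set, with LFCs of -1.57 ± 0.48, -1.39 ± 0.46 and -1.44 ± 0.47 (adjusted p = 0.0139, 0.02 and 0.0206). The other 25 genes did not pass this test, with *Mlc1* at 0.82 ± 0.44 (adjusted p = 0.137), *Mhc* at 0.34 ± 0.43 and *Mlc2* at -0.13 ± 0.45. This scaling moved the median LFC of all genes to -1.25, against -0.10 under TMM, and called 3665 of 10870 genes (33.7%), of which 39 were higher, where TMM called 325, of which 132 were higher. The count of 5 genes became 8 when fed AFC replicate 1 was left out, 3 when SFC replicate 2 was left out, and 2 when SFC replicate 1, fed AFC replicate 2 or fed AFC replicate 3 was left out. The calls over all genes in those fits are not given, so these counts are not a result about the 30 genes.

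Fed SFCs were also set against starved AFCs, a comparison that shares the SFC libraries with the first. These groups differ in both driver and diet, whose parts cannot be told apart here. Here 6 of 30 genes were higher (1.24% of all genes) and 0 lower. They were *TpnC41C* (LFC 4.26 ± 0.42), *Scp1* (4.09 ± 0.55), *wupA* (2.37 ± 0.45), *up* (2.16 ± 0.42), *Mlc2* (2.04 ± 0.35) and *Mlc1* (1.97 ± 0.32). The call of *Mlc2* was lost without SFC replicate 2 (adjusted p = 0.0522), and those of *up* and *wupA* without starved AFC replicate 1 (0.076 and 0.0537 as adjusted p) or replicate 3 (0.0882 and 0.0639). At an unadjusted p below 0.05, 16 of the 30 were higher and 0 lower, against 1001 higher and 949 lower of all 10870 (9.21% and 8.73%). The median LFC was 1.22, against -0.02 for all genes, and the groups did not overlap for 15 of 30 genes (11.2% of all genes). *TpnC47D* had an LFC of 2.14 ± 0.54 in this comparison (adjusted p = 0.0662).

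No difference with diet passed the test. None of the 30 passed the test between starved AFCs and fed AFCs, where 0.221% of all genes did, and DESeq2 and limma-voom called none either. At an unadjusted p below 0.05, 0 were higher and 2 lower, against 229 higher and 317 lower of all 10870 (2.11% and 2.92%). The 2 were *Mlc2*, with an LFC of -0.96 ± 0.34, and *TpnC47D*, with an LFC of -1.38 ± 0.53. For both, every starved library was below every fed AFC library, as was so for 642 of all 10870 genes. The median LFC was -0.13, against -0.09 for all genes.

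The 30 genes have 249 annotated transcripts, and 29 of them have more than 1. The transcript with most reads was the same in fed SFCs and fed AFCs for 20 of these 29 genes. These shares are estimates, since Salmon divides each read among the transcripts it matches, and they differed widely between replicates. No transcript of the 30 genes had a changed share in the diffSpliceDGE test of fed SFCs against fed AFCs (0% of 12052 transcripts tested, 121 of them from 28 of the 30 genes). At an unadjusted p below 0.05 were 12 of the 121, against 603 of all 12052, and limma's diffSplice on voom values also called 0. That count of 0 carries no information on whether isoforms differ. On counts simulated with the dispersions of these libraries, whose median was 1.78 for transcripts, the test recovered 0.17% of genes in which the main transcript had been changed 8-fold, whereas at a dispersion of 0.1 it recovered 98.8%. The shares below are therefore descriptions.

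Among the genes with transcript shares that did not overlap between fed SFCs and fed AFCs was *Mlc1* (chromosome 3R from 27657078 to 27660177, minus strand). Its 3 transcripts share 4 of 5 coding exons and differ in the last, a stretch of 41 bases that lies at 27657915 to 27657955 in *Mlc1-RA* and at 27658073 to 27658113 in *Mlc1-RB* and *Mlc1-RD*, so the products differ at the C-terminus. *Mlc1-RA* took 22.9%, 25.2% and 18.3% of the gene's reads in fed SFCs, 71.5%, 63.4% and 79.5% in starved AFCs and 63.8%, 48.1% and 66.2% in fed AFCs, with no overlap. In levels, *Mlc1-RB* and *Mlc1-RD* together were at 65.4, 109.8 and 62.4 CPM in fed SFCs, at 7.46, 9.30 and 5.57 CPM in starved AFCs and at 8.39, 18.8 and 5.86 CPM in fed AFCs. *Mlc1-RA* was at 19.4, 37.0 and 13.9 CPM in fed SFCs, at 18.7, 16.1 and 21.7 CPM in starved AFCs and at 14.8, 17.4 and 11.5 CPM in fed AFCs, and its SFC and fed AFC ranges overlapped. The adjusted p of the share of *Mlc1-RA* was 1. Shares of *Mhc-RL*, *Mhc-RM*, *Scp1-RA* and *TpnC4-RA*, given below, did not overlap either. How often this occurs over all transcripts was not counted.

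**Figure D5:**
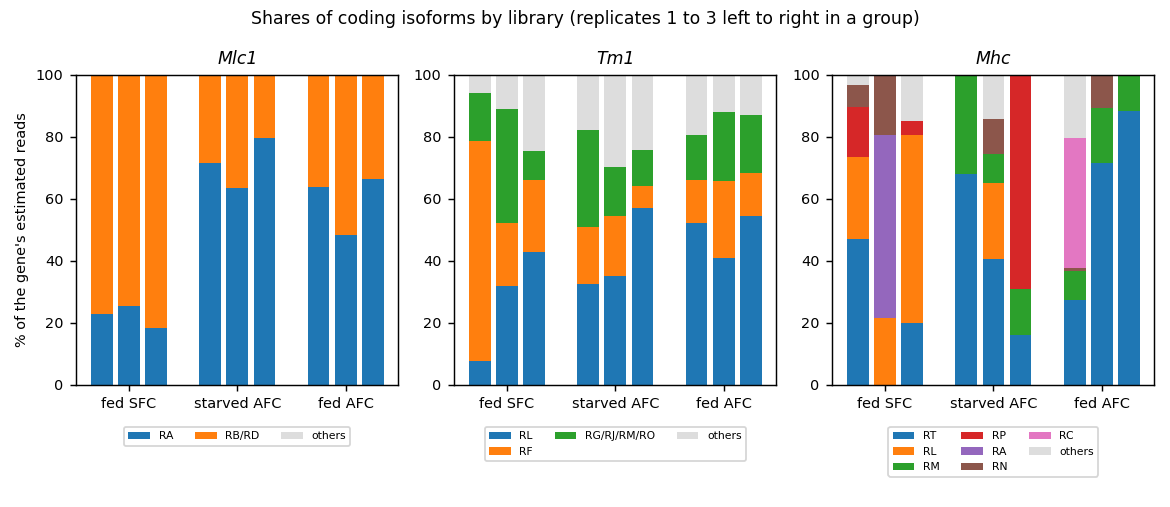
Share (%) of the reads of *Mlc1*, *Tm1* and *Mhc* given to each coding isoform, in the fed SFC, starved AFC and fed AFC libraries. Transcripts with the same coding exons are summed, and isoforms under 15% in every library are in the grey part. *Mlc1-RA* is at 18.3% to 25.2% in fed SFCs and at 48.1% to 66.2% in fed AFCs, whereas the *Mhc* bars differ among replicates of each group.

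In *Tm1*, the isoforms were carried by different libraries. *Tm1-RF*, which has 1503 coding bases against 852 in *Tm1-RL*, was at 349 CPM in SFC replicate 1, at 34.0 and 49.99 CPM in the other SFC libraries, at 19.5, 24.4 and 6.84 CPM in starved AFCs and at 17.6, 41.0 and 13.2 CPM in fed AFCs. It was 70.9% of the gene in SFC replicate 1 and 20.5% and 23.4% in the others. *Tm1-RL*, the leading transcript in AFCs, was at 37.0, 52.4 and 91.3 CPM in fed SFCs, at 34.3, 43.9 and 55.4 CPM in starved AFCs and at 65.7, 67.5 and 51.5 CPM in fed AFCs. Most of the high *Tm1* level of SFC replicate 1, 493 CPM for the gene, was thus in a single transcript.

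*Mhc*, which makes its many forms from a single gene by alternative exons, has 21 transcripts. *Mhc-RL* was given 26.7%, 21.4% and 60.4% of the reads in fed SFCs, 0%, 24.4% and 0% in starved AFCs and 0% in every fed AFC library. *Mhc-RM*, with as many coding bases, was given 0% in every SFC library, 32.1%, 9.30% and 14.9% in starved AFCs and 9.28%, 17.7% and 11.8% in fed AFCs. *Mhc-RT* took 46.8%, 0% and 20.0% in fed SFCs, 67.9%, 40.6% and 16.1% in starved AFCs and 27.2%, 71.4% and 88.2% in fed AFCs. The adjusted p was 0.53 for *Mhc-RL* and 0.74 for *Mhc-RM*, and a listed 0 can be a choice of the estimator among near-identical transcripts.

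The largest rise of a gene, that of *Scp1*, was in transcripts that encode the same protein. *Scp1-RA* and *Scp1-RB* share all coding bases. *Scp1-RA* was given 54.9%, 6.76% and 27.7% of the reads in fed SFCs, 10.6%, 51.0% and 77.2% in starved AFCs and 0%, 0.42% and 0% in fed AFCs. Its adjusted p of 0.278 was the smallest of the 121 transcripts. *TpnC41C-RA* held 82.8% to 100% of *TpnC41C* in fed SFCs, 70.1% to 100% in starved AFCs and 50.5% to 83.6% in fed AFCs. In *TpnC4* the minor transcript *TpnC4-RA* held 22.1% to 23.9% in fed SFCs, 5.69% to 11.3% in starved AFCs and 0% to 9.99% in fed AFCs, at a gene level that did not differ beyond its error. *up-RN* and *wupA-RF* led their genes in the group means of all 3 groups.

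Other muscle genes gave a like mixture. Of 15 genes for muscle actins, calcium handling and muscle regulators, 13 had positive LFCs in fed SFCs over fed AFCs, with a median of 0.66. *Chd64*, with an LFC of -0.83 ± 0.30 (adjusted p = 0.162), had every SFC library below every fed AFC library. In the test 1 of the 15 was higher and 0 were lower, against 1.21% and 1.78% of all genes. It was *Act79B*, an actin known from tubular and jump muscle, with 100.3, 122 and 48.1 CPM in fed SFCs, 10.7, 14.0 and 9.21 CPM in starved AFCs and 10.9, 23.1 and 7.74 CPM in fed AFCs (LFC 2.70 ± 0.44, adjusted p = 0.00712). *Act88F*, the flight muscle actin, had an LFC of 1.54 ± 0.41 (adjusted p = 0.0649), and *Mef2*, the transcription factor of muscle identity, one of 0.02 ± 0.32.

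Markers of other tissues were measured beside these genes, and their part in the results was not tested. Their sums in TPM also depend on the rRNA content of each library. The 4 germline markers summed to 427, 113 and 284 TPM in fed SFCs, to 145, 166 and 69.4 TPM in starved AFCs and to 118, 157 and 86.5 TPM in fed AFCs, and *bcd*, an mRNA of the oocyte, was higher in fed SFCs (LFC 1.69 ± 0.33, adjusted p = 0.0188). The 6 fat body markers summed to 404, 345 and 791 TPM in fed SFCs, to 125, 265 and 64.0 TPM in starved AFCs and to 374, 97.4 and 156 TPM in fed AFCs, with a median LFC of 1.09 and 0 past the test. The 6 midgut markers, of which 3 were lower in fed SFCs than in fed AFCs (1.78% of all genes), summed to 2352, 1884 and 1950 TPM in fed SFCs, to 4246, 4321 and 2180 TPM in starved AFCs and to 5559, 3078 and 4057 TPM in fed AFCs. Neuron and haemocyte markers summed to at most 2.56 and 3.99 TPM, both in fed AFC replicate 1. The 11 genes by which the study scored SFCs had a median LFC of 0.14 and 0 past the test.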

How the data were processed

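The 9 libraries were quantified by the authors with Salmon 1.1.0 on single-end reads of the BDGP6.32 transcriptome, and 1 table per library was deposited. The estimated counts were deposited by the authors as Salmon gave them, unnormalized, and many are fractional. The TPM values, computed by Salmon over effective lengths, were deposited by the authors beside them and were used for shares and sums, not for tests. Effective lengths served for length offsets. The submitters' processing notes also name bcl2fastq 2.2 and cutadapt.

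Transcripts were matched to genes of BDGP6.54 by identifier (30179 of 30215), and estimated counts were summed per gene and rounded. Library totals were 30551253 to 45910215 reads. The common dispersion was 0.362, and how far depth limited the tests was not measured. edgeR 4.0.16 (R 4.3.3) was run with TMM, filterByExpr at a minimum count of 10, 1 mean per group, glmQLFTest, and Benjamini-Hochberg adjustment over 10870 genes at 0.05. Transcript shares were tested with diffSpliceDGE over 12052 transcripts. Alternatives were DESeq2 1.42.0 (size factors, or its Wald test), limma 3.58.1 (voom), other filters (1 count, or 50 counts in 3 libraries), length offsets, 2-group fits, the replicate number as a block, and libraries left out. Scaling on 29 of the 30 genes (all with reads in every library) and TPM differences with single libraries left out were added after the data were seen. Tables and plots used Python 3.11.15, pandas 2.3.3 and matplotlib 3.10.9.

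On simulated counts for fed SFC against fed AFC (10870 genes, 5 runs, 200 genes changed 2-, 4- or 8-fold), edgeR recovered 8.66%, 64.2% and 68.5% of them by fold size, with 7.09% false calls. With starved AFC left unchanged it made 0 calls per run. For transcript shares (12052 transcripts, 3 runs, 200 genes with the main transcript changed 8-fold) the recovery was 98.8% at a dispersion of 0.1, where 134 of the 727 genes called over the runs were unchanged ones, and 0.17% at the libraries' own dispersions.

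The genes and lists were chosen with earlier results of these data known. Values in every library are given for genes called in a fed SFC comparison, the 5 highest by mean TPM and every troponin C, and *Msp300*, *Zasp52* and the transcripts *Mhc-RM*, *Scp1-RA* and *TpnC4-RA* were added after their values were seen. Separate cultures or batches per replicate are not given beyond the study's term biological replicates, so p-values measure the spread between these libraries. The library kit named in the methods does not mark strand. *Unc-89* was matched through a RefSeq synonym, and the germline marker *nos* is not analysed here. No sequences were printed, and no genome was used here.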

Additional observations from a re-analysis of the deposited data

How the results depend on the processing

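Between fed SFCs and fed AFCs, 7 of the 30 genes were called as reported, 12 by DESeq2 (which called 1064 genes in all, against 325), and 3 to 9 when each library was left out in turn, with 4 without SFC replicate 2 and 3 without fed AFC replicate 3. Between fed SFCs and starved AFCs, 6 were called as reported, 10 with no filter beyond 1 count (296 genes in all) and 12 by DESeq2 (891 genes in all, against 241). With each library left out 4 to 9 were called, the lowest without starved AFC replicate 1 or 3 (111 and 126 genes in all). In all genes, 85 to 487 were called between fed SFCs and fed AFCs with single libraries left out, and 8 to 23 between starved AFCs and fed AFCs, where 24 were called as reported and 100 by DESeq2. Starved AFCs against fed AFCs gave 0 of the 30, and transcript shares 0, under every alternative run. The median LFC of the 30 genes in fed SFCs over fed AFCs stayed between 0.79 and 1.31. For tests of single genes and comparisons, 1562 alternative values stayed on their side of the threshold with the same direction, 37 passed it where the reported value had not, 21 no longer passed it and 0 changed sign among called values. Why they changed was not tested.

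Replicate numbers are shared between groups, and whether they mark pairs of libraries is not given. Deviations from a mean of 3 libraries are tied to each other, so the correlations below cannot settle it. Differently numbered libraries had correlations of -0.50 to 0.64 between starved AFCs and fed AFCs. Same-numbered libraries deviated from their group means with correlations of -0.12, 0.12 and -0.28 between fed SFCs and fed AFCs, of -0.21, -0.53 and 0.39 between starved AFCs and fed AFCs, and of 0.08, -0.12 and -0.10 between fed SFCs and starved AFCs. With the replicate number as a block, 9, 0 and 8 of the 30 genes were called in fed SFCs over fed AFCs, starved AFCs over fed AFCs and fed SFCs over starved AFCs, the first among 186 genes in all, and 0 transcript shares, with a median LFC of 1.01.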

Other observations

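The non-muscle counterparts of the sarcomere genes were also measured. Of 12 genes for non-muscle actomyosin, 0 were called between fed SFCs and fed AFCs by edgeR, 1 was higher and 4 were lower at an unadjusted p below 0.05 (9.06% and 10.6% of all genes tested), and their median LFC was -0.30, against -0.10 for all genes. The cytoplasmic actin gene *Act5C* was read at 800.02, 709.6 and 707 CPM in fed SFCs, at 1383, 1222 and 1686 CPM in starved AFCs and at 1156, 1171 and 1473 CPM in fed AFCs (LFC -0.78 ± 0.26, adjusted p = 0.129). The non-muscle myosin heavy chain gene *zip* was at 615 CPM in SFC replicate 1, at 66.2 and 120 CPM in the other SFC libraries, at 69.3, 90.7 and 72.0 CPM in starved AFCs and at 96.6, 58.0 and 57.8 CPM in fed AFCs, an LFC of 1.92 ± 0.62 (adjusted p = 0.126), and its highest library was the one in which *Tm1-RF* was also highest.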
